A study of Homo sapiens with 6 samples.

Results

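Of 37 genes that encode AP-1 subunits, other immediate early factors and feedback inhibitors of the ERK kinase pathway, 35 were measured in HS578T cells with and without an EP300 expression vector. They were chosen by gene symbol from the platform's annotation, with the probe set of highest mean where a gene had several. Each of the 35 had 1 probe set, out of 17687 named genes on the arrays. EGR2 and MAFK were not analysed here. HS578T, an established line from a human breast carcinoma, grows with a mesenchymal shape and is known to carry an activated HRAS allele. The control group consisted of cells stably transfected with empty pcDNA 3, and the EP300 group of cells stably transfected with pcDNA 3 that carried EP300 cDNA. Both were G418-selected pools of clones, and both were grown in low-glucose DMEM with fetal calf serum, glutamine, insulin and G418, so serum was present in every culture. Each group had 3 cultures with 1 array each, and the design text leaves unsaid if a group's cultures shared a pool. Replicate error here is the spread from culture to culture, whether or not the cultures came from separate pools. If a group's cultures shared a pool, the vector and the pool cannot be told apart. In that case no p or interval here covers the spread between pools. The question put to the data was which of these transcripts differ in level when the EP300 vector is present.

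AP-1 is a family of dimers that a FOS protein forms with a JUN protein, or that JUN, ATF and MAF proteins form with each other, and that bind short DNA motifs in promoters and enhancers. Growth factors and serum, acting through RAS and the ERK kinases, switch on the FOS, JUN and EGR genes within minutes, partly through SRF and its ETS partners bound at serum response elements. The same signal induces its own brakes, among them DUSP phosphatases, Sprouty and SPRED proteins, and ZFP36 proteins that degrade the short-lived messages. EP300, a lysine acetyltransferase, is known as a co-activator that binds several of these factors.

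Promoters were searched near the start for motifs through which genes of this kind are known to be switched on. Sites farther than 250 bases before the start were not searched, so a window without a match does not show that a gene lacks the site. RefSeq promoter windows (GRCh38.p14, 250 bases before to 50 after the start) were found for 27 of the 35 genes, in 37 windows because some genes have several starts. Genes without an entry were FOSL1, ZFP36L2, DUSP4, DUSP5, IER3, EGR3, ETV4 and ETV5. Shown here are the 250 bases before the start, 5′ to 3′ on the gene's strand, for FOS and FOSB, which had the most negative differences, EGR1 and SRF, which hold the serum response motif, DUSP1, which holds a full CRE, and PHLDA1, which had the most positive difference. Capitals mark the CArG box (the motif bound by SRF), the cyclic AMP response element (CRE) TGACGTCA and its core TGACG, on either strand, and every full CRE also contains the core.
FOS (chr14:75278578-75278827, plus strand): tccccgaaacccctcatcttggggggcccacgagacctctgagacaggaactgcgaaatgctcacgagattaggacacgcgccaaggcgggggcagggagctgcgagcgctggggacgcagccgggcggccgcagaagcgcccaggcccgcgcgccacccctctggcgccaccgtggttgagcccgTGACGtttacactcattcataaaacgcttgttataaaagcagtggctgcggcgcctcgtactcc
FOSB (chr19:45467746-45467995, plus strand): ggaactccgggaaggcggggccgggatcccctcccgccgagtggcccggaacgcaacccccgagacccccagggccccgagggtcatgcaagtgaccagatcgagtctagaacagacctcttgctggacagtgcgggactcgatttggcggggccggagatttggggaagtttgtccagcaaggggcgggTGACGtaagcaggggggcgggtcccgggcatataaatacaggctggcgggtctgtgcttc
EGR1 (chr5:138465229-138465478, plus strand): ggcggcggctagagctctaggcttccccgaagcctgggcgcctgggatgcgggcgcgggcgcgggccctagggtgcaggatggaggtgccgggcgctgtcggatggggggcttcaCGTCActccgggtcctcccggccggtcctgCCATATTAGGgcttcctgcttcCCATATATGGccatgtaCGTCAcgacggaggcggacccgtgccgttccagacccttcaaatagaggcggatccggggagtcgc
SRF (chr6:43171019-43171268, plus strand): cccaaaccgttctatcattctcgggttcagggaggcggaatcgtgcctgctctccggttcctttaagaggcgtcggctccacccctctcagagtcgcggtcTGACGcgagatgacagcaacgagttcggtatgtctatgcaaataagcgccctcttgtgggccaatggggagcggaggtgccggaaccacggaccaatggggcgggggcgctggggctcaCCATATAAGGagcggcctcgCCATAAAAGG
DUSP1 (chr5:172771196-172771445, minus strand): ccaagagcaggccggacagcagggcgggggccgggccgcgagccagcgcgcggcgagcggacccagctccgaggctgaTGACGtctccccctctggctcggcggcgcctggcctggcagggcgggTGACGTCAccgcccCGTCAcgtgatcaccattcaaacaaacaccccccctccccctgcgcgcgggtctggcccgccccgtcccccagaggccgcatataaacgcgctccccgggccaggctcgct
PHLDA1 (chr12:76031777-76032026, minus strand): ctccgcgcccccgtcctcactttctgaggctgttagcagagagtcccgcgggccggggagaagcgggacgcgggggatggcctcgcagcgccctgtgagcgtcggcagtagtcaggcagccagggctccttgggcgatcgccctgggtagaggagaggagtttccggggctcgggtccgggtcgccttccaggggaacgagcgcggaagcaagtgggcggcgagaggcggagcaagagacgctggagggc

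CArG boxes were found in EGR1 and SRF, with 2 in each of these windows. This is 5.41% of the 37 windows, against 1.29% of all 35116 promoters of the same length. In EGR1 the sites were CCATATTAGG and CCATATATGG, and in SRF they were CCATATAAGG and CCATAAAAGG. The full CRE stood in the promoters of DUSP1, JUND, MAFF and ZFP36L1 (10.8% of windows, 1.85% of all promoters). The CRE core TGACG, searched after the sequences had been seen, was found for 18 genes, FOS, FOSB, JUN, JUNB and EGR1 among them (51.4% of windows, 24.6% of all promoters). The AP-1 motif TGANTCA was found for FOSL2 and SPRED2 (5.41% of windows, 7.71% of all promoters). A match describes letters and does not show that a factor binds.

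None of the 35 genes passed the test. By limma 0 had an adjusted p below 0.05, as had 0 of all 21448 probe sets (0.0%). At an unadjusted limma p below 0.05 there were 4 genes (11.4%), against 6.52% of all probe sets. FOS, FOSB and EGR3 were the 3 with lower values in EP300 cultures (3.07% of all probe sets were lower at this p), and PHLDA1 the 1 with a higher value (3.45%). In 7 genes (20%) the 3 arrays of one group lay wholly to one side of the other 3, against 12.2% of all probe sets. FOS, FOSB, JUND, EGR3 and IER3 were the 5 with lower EP300 arrays (5.91% of all probe sets), and EGR4 and IER5 the 2 with higher ones (6.3%). A difference of more than 0.5 on the log2 scale was seen in 7 genes (20%), against 11.1% of all probe sets, of which FOS, FOSB, EGR1 and EGR3 were lower (5.42% of all probe sets) and DUSP10, PHLDA1 and ETV4 higher (5.7%). In all, 20 genes were lower and 15 higher (42.9% higher, against 50.2% of all probe sets). The median difference was -0.07, against 0.001 over all probe sets, and it ran from -0.13 to -0.04 when 1 array was left out. These counts describe the list and are no test of it.

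**Figure D1:**
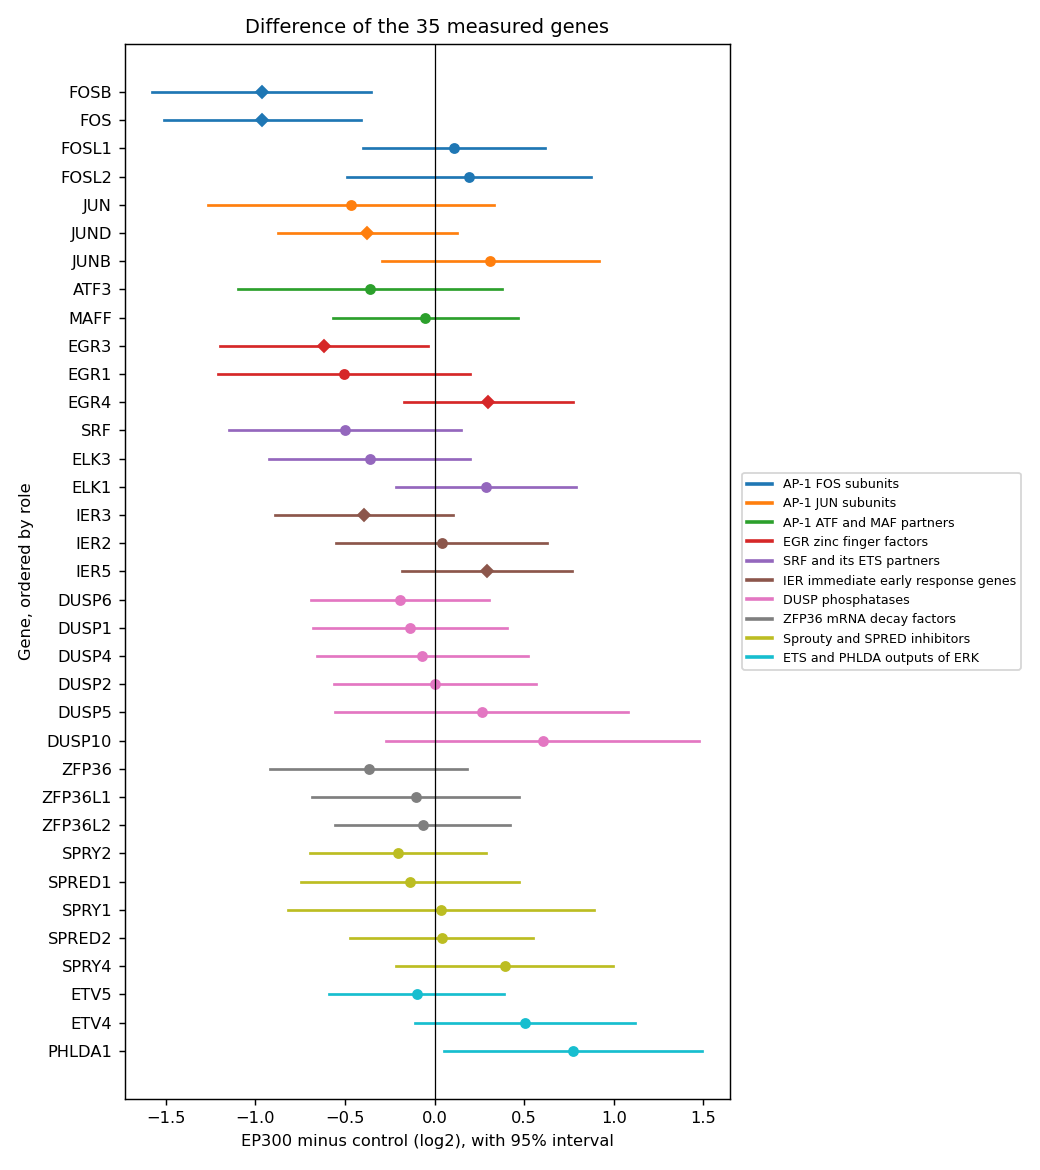
Difference in log2 value, EP300 minus control, for each of the 35 genes, with limma's 95% interval, grouped and coloured by role. Diamonds are genes whose 3 EP300 arrays lie wholly to one side of the 3 control arrays, circles are the others. FOS, FOSB, EGR3 and PHLDA1 have intervals that leave out 0, and the other 31 include it.

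The values are the authors' deposited values, taken as log2. The 6 arrays had medians from 4.456 to 4.497, lower quartiles from 3.468 to 3.495 and correlations with each other from 0.977 to 0.9807. No detection calls were used, so the background level is unknown. Among the 35 genes, 9 had a mean below the array medians and 1 (SPRY4) a mean below the lower quartiles, and a difference at such levels can be compressed by background. No probe set carried the symbol EP300, so the level of the transgene was not analysed here. Its paralog CREBBP differed by 0.26 (95% interval -0.42 to 0.94), and by -0.05 without EP300 replicate 3. Of 7 mesenchymal markers 6 had means above the array medians, and of 6 epithelial markers 4, among them CDH1, lay below the lower quartiles, as did 4 of 6 endothelial markers. Of 5 leukocyte markers none lay below the lower quartiles and 3 lay above the medians. The highest was the actin-bundling gene LCP1 at 8.11. CSF1R had means of 5.03 (control) and 5.22 (EP300), and CD3E of 4.76 (control) and 4.58 (EP300). Below the array medians stayed the defining marker PTPRC, at means of 4.05 (control) and 3.54 (EP300), and CD14, at 3.61 (control) and 3.84 (EP300).

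FOS and FOSB, the subunits that are made transiently after stimulation, had the most negative differences of all 35 genes. FOS measured 4.91, 4.30 and 4.63 in control replicates 1, 2 and 3, and 3.35, 3.85 and 3.76 in EP300 replicates 1, 2 and 3. Every EP300 array lay below every control array. The mean was 4.61 ± 0.31 in control and 3.65 ± 0.27 in EP300 cultures (log2, SD, n = 3 each), a 1.95-fold difference (log2 difference -0.96 ± 0.25 SE, 95% interval -1.51 to -0.41, limma adjusted p = 0.735). FOS was a low signal on these arrays, with 4 of its 6 values below the median of their array and EP300 replicate 1 below the lower quartile. FOSB measured 6.13, 5.74 and 6.40 in the controls and 5.51, 5.14 and 4.72 with EP300. Again the groups did not overlap, and all 6 values lay above the array medians. The difference was -0.97 ± 0.27 SE, also 1.95-fold (95% interval -1.58 to -0.36, limma adjusted p = 0.735). The exact two-sided permutation p was 0.1 for both genes, which is the smallest that 3 against 3 arrays allow. When 1 array was left out, the difference ran from -1.12 to -0.81 for FOS and from -1.16 to -0.77 for FOSB, and both kept an unadjusted limma p below 0.05 in each of these 6 fits. EGR3 kept it in 3 of the 6 and PHLDA1 in 2.

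FOSL1 and FOSL2 encode the FRA proteins, the FOS relatives without a strong transactivation domain. FOSL1 measured 11.20, 11.15 and 10.87 in control and 11.09, 10.97 and 11.48 in EP300 cultures. The groups overlapped, with EP300 replicate 3 the highest array and control replicate 3 the lowest. FOSL1 differed by 0.11 (95% interval -0.40 to 0.61), and by -0.04 without EP300 replicate 3. FOSL2 differed by 0.19 (95% interval -0.49 to 0.87) and by -0.14 without EP300 replicate 3, whose value of 8.30 stood above the other 5 (7.21 to 7.69). Whether FOS and FOSB differ from FOSL1 and FOSL2 in their response was not tested.

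JUN encodes the main partner of FOS. Its values were 9.22, 8.73 and 8.03 in control and 7.61, 8.30 and 8.68 in EP300 cultures. Control replicate 1 was the highest and EP300 replicate 1 the lowest, and the remaining arrays overlapped. The difference of -0.47 ± 0.36 SE (95% interval -1.26 to 0.33, limma adjusted p = 0.873) shrank to -0.17 without EP300 replicate 1. JUND, a JUN paralog that is expressed constitutively in most cells, measured 5.96, 5.48 and 5.60 in control and 5.13, 5.43 and 5.35 in EP300 cultures. All EP300 arrays lay below the controls, by a narrow gap, with a difference of -0.38 ± 0.22 SE (limma adjusted p = 0.82). JUNB, often a weaker activator than JUN, differed in the other direction by 0.31 (95% interval -0.30 to 0.92), and by 0.09 without EP300 replicate 3. ATF3, a stress-induced partner of JUN, differed by -0.36 (95% interval -1.10 to 0.37). MAFF, a small MAF protein that lacks a transactivation domain, differed by -0.05 (95% interval -0.57 to 0.46).

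**Figure D2:**
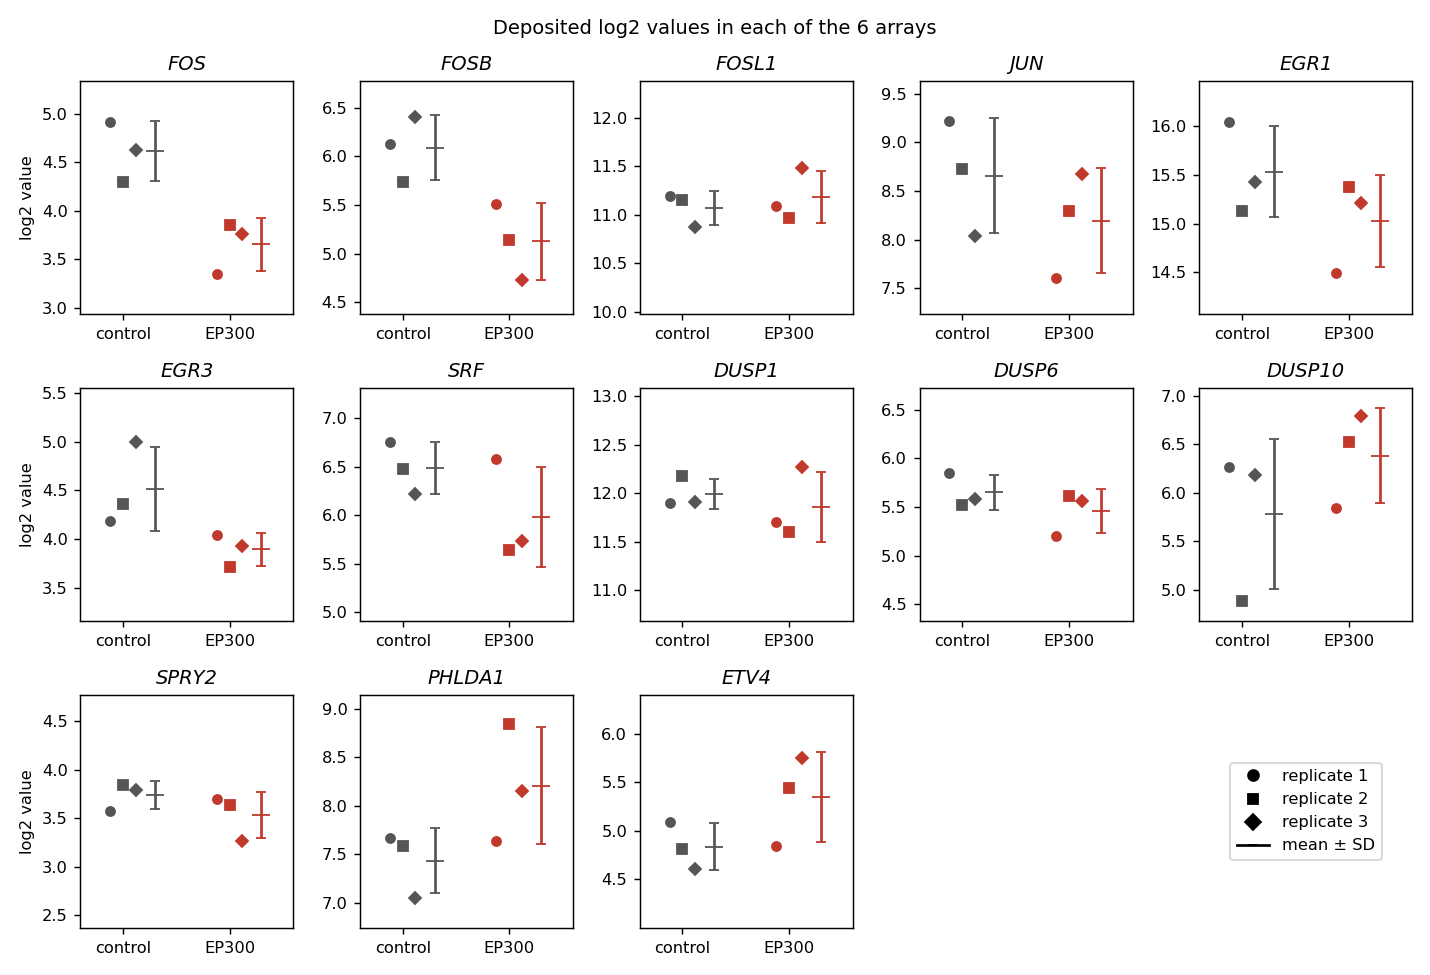
Deposited log2 value in each array for the 13 genes described in full, with circle, square and diamond for replicates 1, 2 and 3 and the mean ± SD beside them; every panel spans the same range of log2 values. The EP300 arrays lie below all control arrays for FOS, FOSB and EGR3, and the groups overlap in the other 10 panels.

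EGR genes encode zinc finger factors that ERK signalling induces through SRF. EGR1 measured 16.04, 15.12 and 15.43 in control and 14.49, 15.37 and 15.21 in EP300 cultures. As for JUN, control replicate 1 was the highest and EP300 replicate 1 the lowest array, and the groups overlapped. The difference was -0.51 ± 0.31 SE, which is 1.42-fold (95% interval -1.21 to 0.20, limma adjusted p = 0.829), and -0.24 without EP300 replicate 1. EGR3, a further factor of the family, measured 4.18, 4.36 and 4.998 in control and 4.04, 3.71 and 3.93 in EP300 cultures. The groups did not overlap, but 5 of the 6 values lay below the medians of their arrays. EGR3 differed by -0.62 ± 0.26 SE (95% interval -1.198 to -0.04, limma adjusted p = 0.756), and by -0.38 without control replicate 3. EGR4 went the other way with a difference of 0.30 (95% interval -0.17 to 0.77). Its EP300 values of 4.06, 3.76 and 3.70 lay just above the control values of 3.45, 3.68 and 3.49, and all 6 were below the array medians.

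SRF binds the serum response element together with ETS factors such as ELK1 and ELK3. SRF measured 6.75, 6.48 and 6.22 in control and 6.58, 5.64 and 5.73 in EP300 cultures. EP300 replicates 2 and 3 lay below the controls, and EP300 replicate 1 lay among them. The difference was -0.50 ± 0.29 SE (95% interval -1.15 to 0.15, limma adjusted p = 0.82), and -0.80 without EP300 replicate 1. ELK1, an ERK substrate that activates with SRF, differed by 0.29 (95% interval -0.22 to 0.79), and ELK3, which represses until ERK phosphorylates it, by -0.36 (95% interval -0.92 to 0.20). The IER genes are small, rapidly induced genes of less defined function. IER3, which is linked to cell survival, measured 13.57, 13.48 and 13.93 in control and 13.11, 13.45 and 13.23 in EP300 cultures. The gap between the groups was narrow, and the difference was -0.40 ± 0.22 SE (limma adjusted p = 0.81). IER5 differed by 0.29 (95% interval -0.18 to 0.77) with EP300 arrays above the controls, and IER2 by 0.04 (95% interval -0.55 to 0.63).

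DUSP genes encode phosphatases that inactivate MAP kinases. DUSP6, the cytoplasmic phosphatase selective for ERK and a widely used readout of ERK output, measured 5.86, 5.52 and 5.58 in control and 5.20, 5.62 and 5.56 in EP300 cultures. Apart from EP300 replicate 1 at the bottom and control replicate 1 at the top, the groups ran together. DUSP6 differed by -0.19 (95% interval -0.69 to 0.31, limma adjusted p = 0.914). DUSP1, a nuclear phosphatase of p38, JNK and ERK, measured 11.90, 12.18 and 11.91 in control and 11.70, 11.61 and 12.27 in EP300 cultures. EP300 replicate 3 was the highest of all arrays and the other EP300 arrays the lowest, and the difference was -0.14 (95% interval -0.68 to 0.40). DUSP10, which prefers JNK and p38, measured 6.27, 4.89 and 6.19 in control and 5.84, 6.52 and 6.79 in EP300 cultures. The difference of 0.60 ± 0.39 SE (95% interval -0.27 to 1.48, limma adjusted p = 0.84) rested on the low control replicate 2, and was 0.16 without it. The nuclear, inducible DUSP2, DUSP4 and DUSP5 differed by 0.0006, -0.07 and 0.26. DUSP4 lay below the array median on all 6 arrays and DUSP5 on 5.

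ZFP36 proteins bind AU-rich elements and destabilise messages such as those of FOS and cytokines. All 3 genes were lower with EP300, by -0.37 for ZFP36 (95% interval -0.92 to 0.18), -0.11 for ZFP36L1 and -0.07 for ZFP36L2, and none passed. ZFP36L1 turned to 0.02 without EP300 replicate 1 and ZFP36L2 to 0.04 without EP300 replicate 2.

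Sprouty and SPRED proteins restrain RAS and RAF activation below receptor tyrosine kinases. SPRY2 measured 3.58, 3.84 and 3.79 in control and 3.70, 3.63 and 3.26 in EP300 cultures. These values lay near the lower quartiles of the arrays, and the groups overlapped. SPRY2 differed by -0.21 (95% interval -0.70 to 0.28, limma adjusted p = 0.907). SPRY1 and SPRY4 also had every value below the array medians, with differences of 0.04 (95% interval -0.82 to 0.89) and 0.39 (95% interval -0.21 to 1.00). SPRED1 and SPRED2, read above the array medians, differed by -0.14 (95% interval -0.75 to 0.47) and 0.04 (95% interval -0.475 to 0.55). Of the 5 genes, 3 were higher and 2 lower, and none had an unadjusted limma p below 0.05.

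PHLDA1, ETV4 and ETV5 are known transcriptional outputs of growth factor and ERK signalling. PHLDA1, which encodes a pleckstrin homology-like protein, measured 7.67, 7.59 and 7.05 in control and 7.64, 8.84 and 8.15 in EP300 cultures. EP300 replicates 2 and 3 lay above all controls, and EP300 replicate 1 lay among them. The mean was 7.43 ± 0.34 in control and 8.21 ± 0.60 in EP300 cultures (log2, SD, n = 3 each), a 1.71-fold difference (log2 difference 0.77 ± 0.32 SE, 95% interval 0.05 to 1.49, limma adjusted p = 0.755). It was 0.46 without EP300 replicate 2 and 1.06 without EP300 replicate 1. ETV4, an ETS factor of the PEA3 group, measured 5.09, 4.81 and 4.61 in control and 4.84, 5.44 and 5.75 in EP300 cultures. The pattern over arrays was like that of PHLDA1, with EP300 replicate 1 among the controls, and the difference was 0.50 ± 0.27 SE (95% interval -0.11 to 1.12, limma adjusted p = 0.803). ETV5, of the same group, differed by -0.10 (95% interval -0.59 to 0.39).

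**Figure D3:**
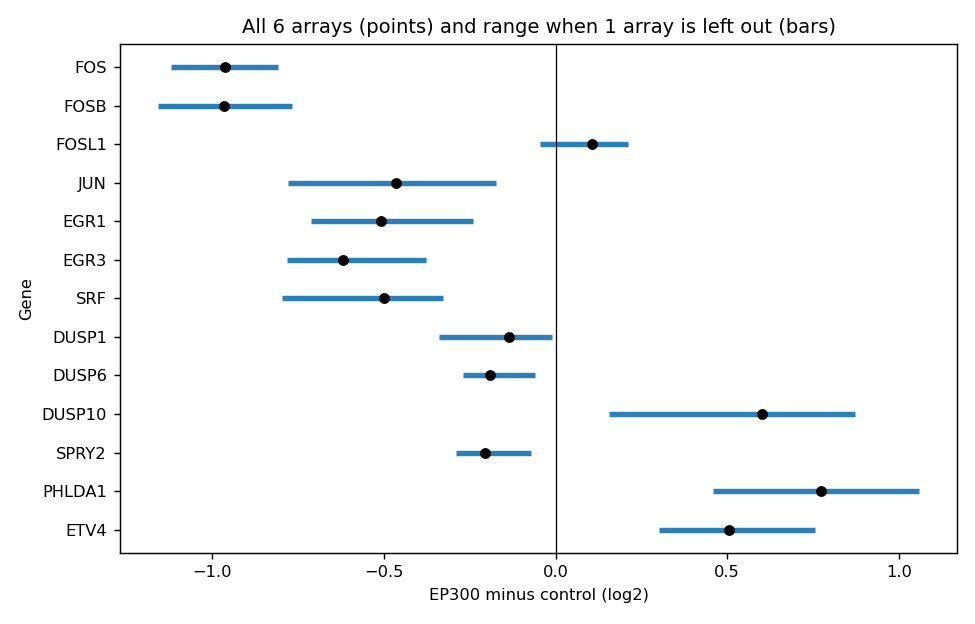
EP300 minus control in log2 units for the 13 genes described in full, with all 6 arrays (points) and as the range of the 6 fits that each leave out 1 array (bars). FOS stays between -1.12 and -0.81 and FOSB between -1.16 and -0.77, while DUSP10 reaches 0.16, JUN -0.17 and FOSL1 crosses 0.

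Variation between cultures of one group was close to that of other genes. The median SD within groups was 0.33 on the log2 scale for the 35 genes and 0.32 for all probe sets. Control replicate 1 was the highest control array for 18 of the 35 genes (51.4%, against 33.2% of all probe sets), among them FOS, JUN, JUND, EGR1, SRF and DUSP6. EP300 replicate 1 was the lowest EP300 array for 16 (45.7%, against 32.7%), among them FOS, JUN, JUND, EGR1, DUSP6, PHLDA1 and ETV4. These arrays add to a negative difference for FOS, JUN and EGR1, and EP300 replicate 1 lowers the positive difference of PHLDA1 and ETV4. Without EP300 replicate 1, 6 genes had an unadjusted limma p below 0.05: FOS, FOSB, EGR3 and PHLDA1, with SRF and ETV4 in addition. Without EP300 replicate 3 there were 2, FOS and FOSB. The part of single arrays in these differences was tested only by leaving each out.

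**Figure D4:**
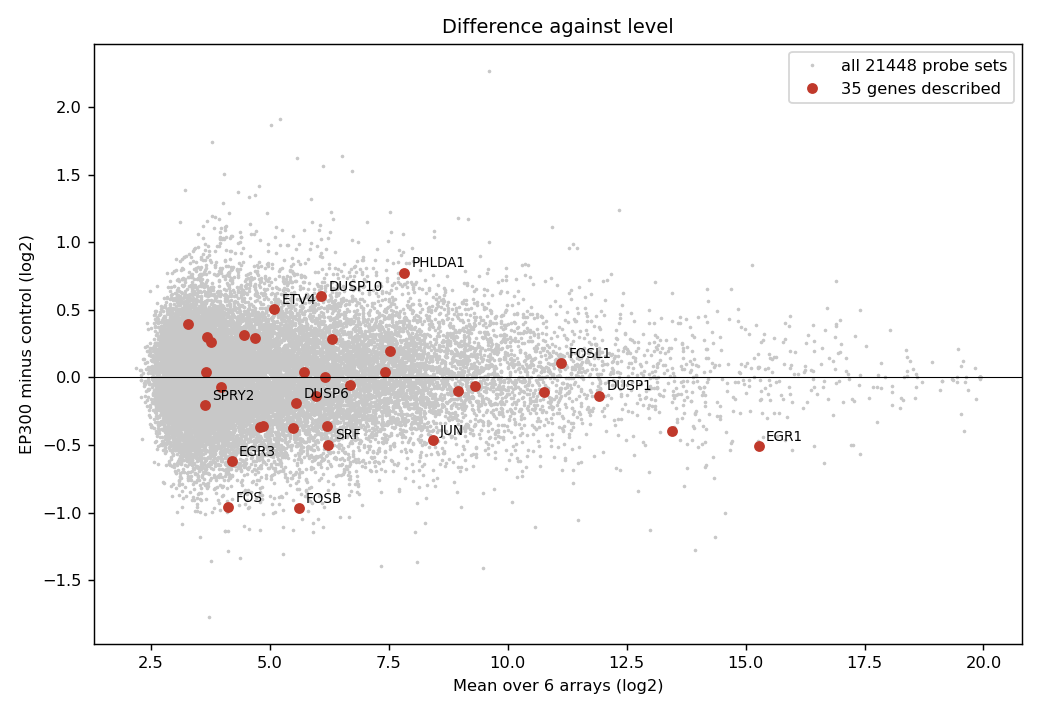
EP300 minus control (log2) against the mean over the 6 arrays (log2) for all 21448 probe sets (grey) and the 35 genes (red), with the 13 genes described in full named. The differences of all probe sets, the 35 genes included, run from -1.77 to 2.26. Those of FOS, FOSB and PHLDA1 are -0.96, -0.97 and 0.77.

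The rest of the pathway was covered by 10 lists with 121 genes, of which 106 were measured. By limma 0 of the 106 had an adjusted p below 0.05. At an unadjusted limma p below 0.05 there were 11 (10.4%, against 6.52% of all probe sets), 10 lower and 1 higher in EP300 cultures (3.07% and 3.45% of all probe sets). TAGLN and ACTA2 are among the 10, and their differences were known before the lists were drawn up, so this split is a description. The count was 7 without EP300 replicate 2 and 7 without EP300 replicate 3. The median difference of the 106 was -0.04.

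Upstream, of 8 ERBB ligands 4 were higher and 4 lower, with a median of 0.05. EPGN, encoding epigen, differed by -0.635 ± 0.26 SE (limma adjusted p = 0.748), with groups that overlapped. All its values lay below the array medians, and 4 of the 6 below the lower quartiles. Of 9 receptors 4 were higher and 5 lower, with a median of -0.12. PDGFRA, a platelet-derived growth factor receptor, differed by -0.74 ± 0.29 SE (limma adjusted p = 0.748), and by -0.42 without control replicate 1. All values of PDGFRA also lay below the array medians, and 5 of the 6 below the lower quartiles. Of 13 genes of the RAS-ERK cascade 6 were higher and 7 lower, with a median of -0.03 and a range from -0.31 to 0.28, and the smallest p belonged to NF1, a RAS inhibitor, at -0.31 ± 0.29 SE. Of 7 ERK-activated kinases 4 were higher, with a median of 0.05, and RPS6KA3, which encodes the kinase RSK2, differed by 0.61 ± 0.22 SE (limma adjusted p = 0.746), with EP300 arrays above all controls. Of 11 genes of the JNK and p38 cascade 6 were higher and 5 lower, with a median of 0.09, and MAPK10, a JNK gene, had the smallest p at -0.44 ± 0.24 SE. All 6 values of MAPK10 lay below the array medians, and 5 of them below the lower quartiles. Of 6 other DUSP genes 5 were lower, with a median of -0.22, and the ERK phosphatase gene DUSP7 differed by -0.43 ± 0.23 SE. DUSP7 lay below the array median on all 6 arrays and below the lower quartile on 1.

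Downstream, 12 of 19 other immediate early genes were higher and 7 lower, with a median of 0.16. The 3 with an unadjusted limma p below 0.05 (15.8%, against 6.52% of all probe sets) were all lower in EP300 cultures (3.07% of all probe sets). In 5 of the 19 genes the groups did not overlap (26.3%, against 12.2% of all probe sets). Of these 4 were lower, the same 3 among them, and 1 was higher, TIPARP at 0.39, a gene picked out with its value known. KLF4, a zinc finger factor, measured 5.91, 5.51 and 5.56 in control and 4.79, 5.15 and 4.24 in EP300 cultures, a difference of -0.93 ± 0.27 SE (limma adjusted p = 0.735). NR4A1, an orphan nuclear receptor induced like FOS, measured 5.25, 5.79 and 5.84 in control and 4.86, 5.24 and 4.71 in EP300 cultures, a difference of -0.69 ± 0.25 SE (limma adjusted p = 0.746). CCN2, a matricellular protein gene, differed by -0.50 ± 0.22 SE (limma adjusted p = 0.765). Of 7 other AP-1 dimer partners 5 were lower, with a median of -0.09, and BATF3 differed by -0.61 ± 0.27 SE (limma adjusted p = 0.765).

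Of 15 AP-1 and ERK target genes 10 were lower and 5 higher, with a median of -0.02. CCND1, which encodes the G1 cyclin D1, measured 11.56, 11.96 and 11.64 in control and 10.93, 10.89 and 11.28 in EP300 cultures. The EP300 arrays lay below all controls, and the difference was -0.69 ± 0.22 SE, or 1.61-fold (limma adjusted p = 0.738). Of 11 target genes of SRF and its actin-regulated partners (MRTF), 9 were lower, with a median of -0.26, where ACTG1 was constant (within 0.001) and is counted as lower only by its sign. The smooth muscle genes TAGLN, ACTA2 and CNN1 differed by -1.18 ± 0.22 SE, -0.80 ± 0.20 and -0.64 ± 0.23, with EP300 arrays below all controls. They were the 3 of the 11 with an unadjusted limma p below 0.05 (27.3%, against 6.52% of all probe sets). In 5 of the 11 the groups did not overlap (45.5%, against 12.2% of all probe sets). All 5 were lower in EP300 cultures (5.91% of all probe sets), with MYL9 and TPM2 among them. TAGLN had the lowest limma adjusted p of the 106 genes, at 0.476, and 0.034 with a variance trend and robust estimation (0.034 to 0.866 over the alternative settings). The negative differences of TAGLN and ACTA2 in these data were known before the list was drawn up.

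**Figure D5:**
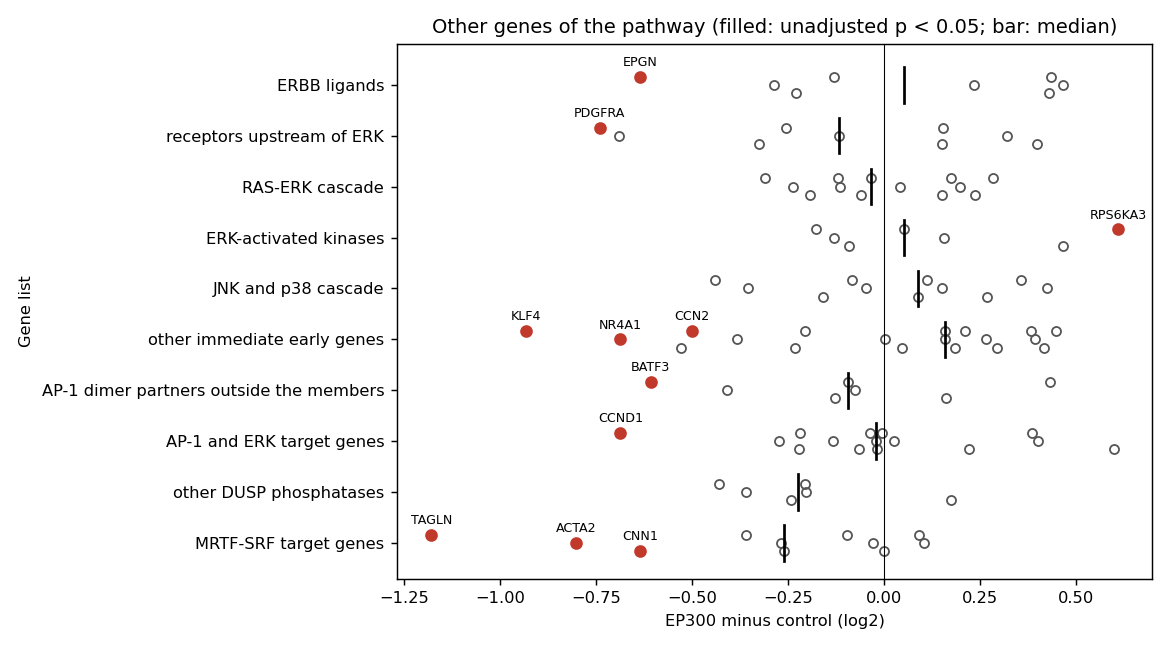
EP300 minus control (log2) for the 106 measured genes of 10 pathway lists, 1 circle per gene, filled where the unadjusted limma p is below 0.05, with the list's median as a bar. Of the 11 filled circles, 10 lie below 0 and RPS6KA3 above it.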

How the data were processed

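Total RNA (Qiagen RNeasy) was labelled with the Affymetrix GeneChip WT PLUS kit, per the labels' protocols. The table of deposited values has a row per probe set and a column per array, which the authors made with Partek 6.6, per the submitters' processing notes. The scale of the deposited values is not stated, and they were taken as log2 from their range (1.787 to 19.93). For background correction, normalization and genome build, the sources used here name no method. Unstated background correction could compress differences of dim probe sets. Separately, 19 probe sets had the same value on all arrays (tolerance 0.001), none of them among the 35 genes. ACTG1 was among these constant probe sets, and why they were constant was not tested.

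EP300 minus control (3 against 3 arrays) was fitted in R 4.3.3 with limma 3.58.1 (lmFit, then eBayes) on all 21448 probe sets, without filter, covariate or block, with Benjamini-Hochberg adjustment and a threshold of 0.05. The fit was tested on simulated data, with variances drawn from the fit and a chosen number of changed probe sets. At these settings, on which recovery depends, the fit missed most changes of 1 on the log2 scale. A gene that did not pass is therefore not shown to have equal levels in the groups. Exact permutation tests used scipy 1.17.1. Motifs were searched as exact matches on both strands.

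The genes and lists were chosen with earlier results of these data known. Described in full were genes with an unadjusted p below 0.05 or a difference above 0.5 in size, and FOS, JUN, EGR1, SRF, DUSP1, DUSP6, SPRY2 and FOSL1. From each pathway list, up to 3 genes with an unadjusted p below 0.05 were named, or the one with the smallest p. The alternatives were quantile normalization, median centring, array weights, 1 probe set per gene, a filter at the median level, no constant probe sets, robust estimation with a variance trend, a replicate block and leaving out each array.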

Additional observations from a re-analysis of the deposited data

How the results depend on the processing

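No gene of the 35 passed an adjusted p of 0.05 in any of the 14 alternative settings, where the lowest adjusted p was 0.573. Over all probe sets 4 passed with a variance trend and robust estimation and 0 in the other settings. Among probe sets above the median level 2 of the 35 genes had an unadjusted p below 0.05, since FOS and EGR3 are then not tested. With 1 array left out this count ran from 2 to 6, and for the 106 pathway genes from 7 to 15. Of the 35 differences 22 kept their sign in all settings. With quantile normalization DUSP2 turned to -0.0123 and SPRED2 to -0.0121. With 1 array left out, the ranges that crossed 0 were -0.0439 to 0.211 for FOSL1, -0.142 to 0.398 for FOSL2, -0.13 to 0.30 for IER2, -0.127 to 0.245 for DUSP2, -0.32 to 0.0831 for DUSP4, -0.12 to 0.54 for DUSP5, -0.341 to 0.0151 for ZFP36L1, -0.216 to 0.0393 for ZFP36L2, -0.201 to 0.115 for MAFF, -0.22 to 0.48 for SPRY1, -0.432 to 0.0125 for SPRED1, -0.0845 to 0.195 for SPRED2, -0.189 to 0.011 for ETV5 and -0.0517 to 0.446 for CREBBP. With the replicate block 0 genes passed and 4 of the 35 had an unadjusted p below 0.05, as without it, and 9 of the pathway genes in place of 11. Deviations of same-numbered arrays correlated at -0.0015, -0.0053 and -0.0089, so no shared deviation by number was seen. Whether same-numbered cultures were handled together cannot be told from these values. Each of the 35 genes had 1 probe set, so no choice between probe sets arose. In the 250 bases before the start 0 genes held the AP-1 motif, against 2 in the whole window. With 3 arrays a group, 11 of the 35 intervals reached 1 on the log2 scale in either direction, and for those genes a 2-fold difference lies inside the interval.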
